A study of Mus musculus with 40 samples.

Results

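The 10 genes of the Nrf2 switch were followed through mouse liver on expression arrays: Nfe2l2 and Nfe2l1, the Keap1 ligase genes Keap1, Cul3 and Rbx1, the small Maf genes Mafg, Maff and Mafk, the repressor gene Bach1, and Sqstm1. They were read from every probe set that the array annotation assigned to 1 of these symbols alone, 19 of 45037 probe sets for 10 of 18193 genes. An expression minimum, log2 4 or more in 3 mice of at least 1 group, kept 18 of the 19 and 18935 probe sets in all; the second Keap1 probe set, 1450747_at, did not pass. A further 5 probe sets carried Rbx1 together with a second symbol and were not used.

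Livers came from male mice 12 weeks old on a C57BL/6J background, 4 per group in 10 groups and 1 Affymetrix Mouse Genome array per mouse. The treated groups received D3T at 300 μmol/kg, or CDDO-Im at 3, 10 or 30 μmol/kg, and the vehicle groups received a mixture of Cremophor-EL, DMSO and PBS alone; each treatment was run in Nrf2-null and in Wt mice. All mice were gavaged 3 times over 5 days, ate a purified diet without ethoxyquin, and were killed 24 hours after the last gavage. D3T is a dithiolethione and CDDO-Im an imidazolide of a synthetic oleanane triterpenoid, and both were given as activators of Nrf2. Nrf2-null mice carry the deletion in the whole body and throughout life.

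Keap1 is the cysteine-rich sensor protein of the pathway. It bridges the transcription factor Nrf2 to the ubiquitin ligase built on the scaffold Cul3 and the RING protein Rbx1, and Nrf2 is degraded until an electrophile modifies Keap1. Nrf2 that escapes pairs with a small Maf protein on antioxidant response elements, the sites that Bach1 occupies as a repressor and that the related factor Nrf1, the product of Nfe2l1, can also use. Sqstm1, the autophagy receptor p62, binds Keap1 in the place of Nrf2. Much of this control acts on the proteins, and the arrays measured RNA only. The values are log2 intensities, in which 1 unit is a doubling; levels of different probe sets cannot be set against each other. In whole liver, fewer cells of a type and less RNA per cell cannot be told apart.

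The core of the antioxidant response element is the sequence that Nrf2 and a small Maf protein occupy together. Letters that match this core lay before an annotated start site of 4 members, and those stretches are shown. The core searched was TGACNNNGC, on both strands, in RefSeq promoters of assembly GRCm38.p6 that run from 250 bases before to 50 bases after each start. It occurred in 4071 of 32851 promoters (12.4%) and in 4 of the 16 promoters of the 10 members: those of Nfe2l2 and of all 3 small Maf genes, for Maff in 1 of its 3 promoters. Capitals mark the core, printed 5′ to 3′ on the strand of the gene.
Nfe2l2 (chr2:75704854-75704913, minus strand): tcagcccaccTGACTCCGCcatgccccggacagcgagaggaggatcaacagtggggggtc
Mafg (chr11:120633736-120633795, minus strand, core on the opposite strand): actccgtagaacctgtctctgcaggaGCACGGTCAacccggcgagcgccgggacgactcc
Maff (chr15:79346483-79346542, plus strand): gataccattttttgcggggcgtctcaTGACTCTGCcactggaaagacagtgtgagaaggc
Mafk (chr5:139791476-139791535, plus strand, core on the opposite strand): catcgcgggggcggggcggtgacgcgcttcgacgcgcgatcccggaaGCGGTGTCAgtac
The cores began 240, 222, 112 and 13 bases before the start in Nfe2l2, Mafg, Maff and Mafk. No promoter of Nfe2l1, Keap1, Cul3, Rbx1, Bach1 or Sqstm1 held these letters in the window searched. A match describes letters and is no site of binding shown by these data.

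The label of the Nrf2-null mice was checked first on Nfe2l2, the gene that encodes Nrf2. The gene (chr2:75675513-75704663 in GRCm38.p6) had 2 probe sets, of which only 1416543_at reported the deletion, with log2 2.72 to 3.10 in the 20 Nrf2-null mice and log2 10.77 to 11.75 in the 20 Wt mice. Nrf2-null vehicle mice read log2 2.79, 2.72, 3.01 and 2.77, against log2 11.27, 11.07, 11.15 and 11.73 in Wt vehicle mice. The genotypes were apart in every treatment (exact two-sided permutation tests, p = 0.029 in each of the 5, the smallest p that 4 mice against 4 allow, 0.041 after adjustment over the 10 tests of both probe sets). This probe set was shown apart because it reports the deletion. The genotype fixed that outcome in advance, so these tests add no support of their own. Nrf2-null levels lay below the expression minimum, so the fold was taken against log2 4. On 1416543_at alone, Nfe2l2 read at least 158-fold lower in Nrf2-null than in Wt vehicle mice. With D3T and with CDDO-Im 3, 10 and 30 it read at least 165-, 144-, 178- and 130-fold lower.

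The second Nfe2l2 probe set, 1457117_at, gave signal in both genotypes. It read log2 7.29, 6.37, 7.0 and 6.74 in Nrf2-null vehicle mice and log2 6.47, 6.48, 6.28 and 6.47 in Wt vehicle mice, and the groups overlapped (exact p = 0.11, adjusted p = 0.14). With CDDO-Im 30 it averaged 6.66 ± 0.33 in Nrf2-null and 5.16 ± 0.51 in Wt mice (SD, n = 4 each), and with CDDO-Im 3 it averaged 7.16 ± 0.41 in Nrf2-null and 5.76 ± 0.36 in Wt mice. Nrf2-null mice were higher without overlap in those 2 of the 5 treatments (exact p = 0.029 and adjusted p = 0.041 in both). Across the 20 Wt arrays the 2 probe sets moved together (Pearson r = 0.65), while over all 40 arrays r was -0.55, with only 1 of them lower in the Nrf2-null mice.

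**Figure D1:**
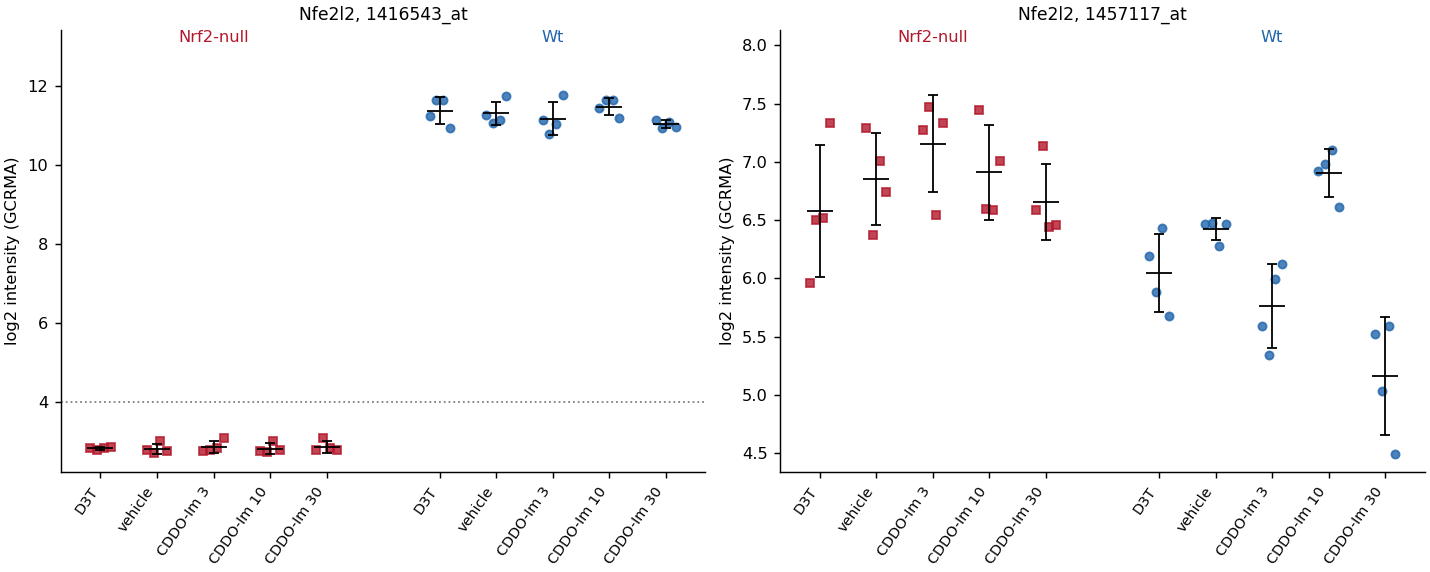
Nfe2l2 in each mouse, as log2 intensity on the y axis, for probe set 1416543_at (left) and 1457117_at (right); squares are Nrf2-null mice, circles Wt mice, and black marks the mean ± SD of 4. On the left all 20 Nrf2-null mice lie under the dotted expression minimum of log2 4 and all 20 Wt mice above 10.77; on the right the genotypes overlap with vehicle, and Wt mice given CDDO-Im 30 are the lowest group, at 4.49 to 5.59.

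How far the switch itself answered the compounds was asked in Wt liver. With D3T, 0 of the 18 member probe sets passed an adjusted p of 0.05 (limma, Benjamini-Hochberg over 18935 probe sets), against 3.16% of all probe sets, and 3 had an unadjusted p under 0.05. With CDDO-Im 3 the count was also 0, against 1.22%, with 2 at an unadjusted p under 0.05. With CDDO-Im 10, 2 were called (11.1%, against 17.0% of all probe sets), both higher (6.65% of all probe sets): 1 of Bach1 and that of Maff. With CDDO-Im 30, 4 were called (22.2%, against 19.8%), all lower (16.2% of all probe sets): 1 each of Nfe2l2 and Nfe2l1 and 2 of the 5 of Cul3. These shares lay near those of all probe sets. All 4 comparisons share the same 4 vehicle mice.

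Known targets of Nrf2 were called more often in the same livers. Of 29 measured targets, 11 rose and 0 fell with D3T, 2 rose and 0 fell with CDDO-Im 3, 13 rose and 0 fell with CDDO-Im 10, and 23 rose and 0 fell with CDDO-Im 30, with median log2 changes of 0.35, 0.08, 0.44 and 0.90. Nqo1, an NAD(P)H quinone reductase, averaged log2 4.72 in Wt vehicle mice, 5.93, 7.03 and 8.81 with CDDO-Im 3, 10 and 30, and 7.26 with D3T. Among all 9695 genes represented by 1 probe set each, 3.66%, 0.805%, 17.3% and 22.3% were called with D3T and CDDO-Im 3, 10 and 30.

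**Figure D2:**
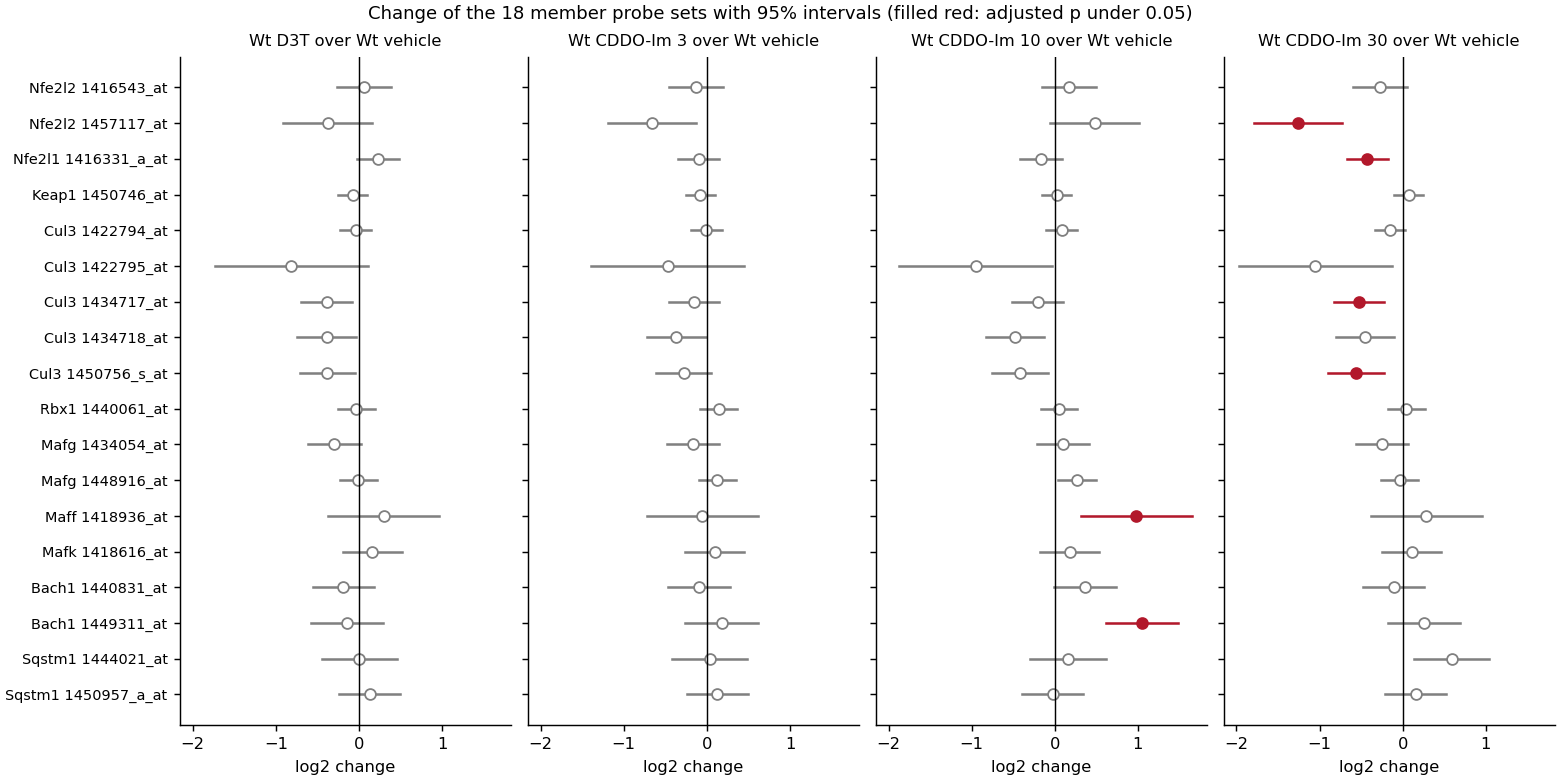
Log2 change of each of the 18 member probe sets (rows) over Wt vehicle in Wt mice given D3T or CDDO-Im 3, 10 or 30 (panels), with 95% intervals of the fit; filled red points passed an adjusted p of 0.05. No point is filled for D3T or CDDO-Im 3, 2 lie right of 0 for CDDO-Im 10 (Maff at 0.98, Bach1 at 1.05) and 4 lie left of 0 for CDDO-Im 30, down to -1.26 for Nfe2l2.

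On 1416543_at, the probe set that reports the deletion, Nfe2l2 was called in 0 of the 4 Wt treatments against vehicle, and 0 had an unadjusted p under 0.05 (limma). The log2 change was 0.06 (95% interval -0.26 to 0.39) with D3T, -0.13 (-0.46 to 0.19) with CDDO-Im 3, 0.17 (-0.15 to 0.50) with CDDO-Im 10 and -0.28 (-0.60 to 0.05) with CDDO-Im 30. Wt mice given CDDO-Im 30 read log2 11.13, 10.94, 11.08 and 10.96, below the 11.45, 11.63, 11.64 and 11.18 of mice given CDDO-Im 10, without overlap. That difference of -0.45 (SE 0.16, limma adjusted p = 0.049) lost the call without any 1 of the 8 mice except CDDO-Im 10 mouse 4 (adjusted p up to 0.14), and with each array centred on its median it was -0.33 (adjusted p = 0.17).

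The second Nfe2l2 probe set had the largest fall among the members at the highest dose. It read log2 5.52, 5.03, 5.59 and 4.49 in Wt mice given CDDO-Im 30, all below the Wt vehicle mice, a change of -1.26 (SE 0.26, limma adjusted p = 0.00094). CDDO-Im 10 mice read 6.92, 6.98, 7.10 and 6.61, all above the vehicle mice, though the change of 0.48 did not pass (adjusted p = 0.22). CDDO-Im 3 mice read 5.59, 5.34, 5.99 and 6.12, all below, with a change of -0.66 (adjusted p = 0.29). Of the CDDO-Im doses, only 30 μmol/kg was called against vehicle, so a lower level at 3 and a higher level at 10 μmol/kg are not established. Between CDDO-Im 30 and CDDO-Im 10 the level differed by -1.74 (limma adjusted p = 4.8e-05). In Nrf2-null liver the CDDO-Im 30 change was called for neither Nfe2l2 probe set, while the 2 genotypes' responses on 1457117_at differed by 1.07, Nrf2-null minus Wt (95% interval 0.32 to 1.82, adjusted p = 0.056).

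Nfe2l1 (chr11:96817414-96829968) encodes Nrf1, a factor held in the endoplasmic reticulum that raises proteasome genes. Its probe set 1416331_a_at read log2 7.20, 6.89, 7.02 and 7.18 in Wt mice given CDDO-Im 30, against log2 7.58, 7.41, 7.43 and 7.56 in Wt vehicle mice. The groups did not overlap, and the change was -0.43 (SE 0.12, limma adjusted p = 0.014). The median change of all 18935 probe sets at this dose was -0.13; with each array centred on its median the change of Nfe2l1 was -0.25 and no longer passed (adjusted p = 0.16). Without mouse 2 of the CDDO-Im 30 group the adjusted p was 0.059.

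D3T mice were the highest Wt group for Nfe2l1, at log2 7.76, 7.76, 7.85 and 7.55, a change from vehicle of 0.23 (95% interval -0.02 to 0.48). Both CDDO-Im 10 mice (7.17, 7.34, 7.38 and 7.43) and CDDO-Im 30 mice lay below all 4 D3T mice. The differences from D3T were -0.40 (SE 0.12, limma adjusted p = 0.022) with CDDO-Im 10 and -0.66 (SE 0.12, adjusted p = 0.00020) with CDDO-Im 30, and only the second passed with centred arrays (adjusted p = 0.0048 for CDDO-Im 30 and 0.054 for CDDO-Im 10). The CDDO-Im 10 call also ended without D3T mouse 1, 2 or 3 or CDDO-Im 10 mouse 1 (adjusted p up to 0.083). In Nrf2-null mice the CDDO-Im 30 mean of 7.07 ± 0.22 and the vehicle mean of 7.32 ± 0.28 overlapped (SD, n = 4 each).

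Keap1 (chr9:21229730-21239332) was called in 0 of the 16 comparisons, with 0 at an unadjusted p under 0.05 (limma). Probe set 1450746_at spanned log2 8.88 to 9.44 over all 40 mice, and its Wt changes were -0.07 (95% interval -0.25 to 0.10) with D3T, -0.08 (-0.26 to 0.09) with CDDO-Im 3, 0.03 (-0.15 to 0.20) with CDDO-Im 10 and 0.07 (-0.10 to 0.24) with CDDO-Im 30. Nrf2-null vehicle mice read log2 9.11, 9.12, 9.34 and 9.20, against log2 9.44, 9.20, 9.24 and 9.35 in Wt vehicle mice, with overlap and a difference of -0.11 (-0.29 to 0.06). With centred arrays the Wt difference of CDDO-Im 30 from D3T was 0.33 (adjusted p = 0.014), against 0.14 without centring (adjusted p = 0.22). The other Keap1 probe set stayed within 0.02 of log2 2.69 on 34 of 40 arrays and carries no usable measurement.

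Cul3 (chr1:80264923-80340690), the scaffold of the ligase, gave different answers from its 5 probe sets. On the brightest, 1422794_at, Wt mice given CDDO-Im 30 averaged log2 11.13 ± 0.10 and Wt vehicle mice 11.28 ± 0.12 (SD, n = 4 each), with overlap and a change of -0.15 (95% interval -0.34 to 0.03, limma adjusted p = 0.25; 0.02 with centred arrays). Probe set 1434717_at read 6.63, 6.66, 6.77 and 6.57 with CDDO-Im 30 and 7.61, 6.94, 7.03 and 7.15 with vehicle, without overlap (change -0.53, SE 0.15, adjusted p = 0.012). Probe set 1450756_s_at read 6.74, 6.47, 6.87 and 5.81 with CDDO-Im 30 and 7.49, 6.95, 6.94 and 6.75 with vehicle, with overlap (change -0.56, SE 0.16, adjusted p = 0.015).

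Both Cul3 calls rested partly on single mice and on scale. Vehicle mouse 1 was the highest of its group on both probe sets, and without it the adjusted p was 0.080 for 1434717_at and 0.12 for 1450756_s_at; 1450756_s_at also lost its call without CDDO-Im 30 mouse 4 and with the compared groups alone (adjusted p = 0.13). With centred arrays the changes were -0.35 and -0.39 and did not pass (adjusted p = 0.083 and 0.081). With D3T, 4 of the 5 Cul3 probe sets, all but the brightest, lay below vehicle in every mouse, with changes of -0.38 to -0.82 and limma adjusted p of 0.16 to 0.37. Of them, 1422795_at averaged log2 4.30 over all arrays, near the expression minimum. These 4 of the 18 member probe sets (22.2%) were the only ones whose groups did not overlap there, against 13.1% of all probe sets in either direction and 5.52% lower. All 4 read 1 gene in the same mice, so this share does not count separate members. Over 40 arrays the correlations among the 5 ran from -0.31 to 0.67. Rbx1, the RING subunit, was measured by 1440061_at alone, which stayed within 0.02 of log2 4.64 on 31 of 40 arrays, so its changes of -0.03 to 0.14 in Wt mice say little.

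**Figure D3:**
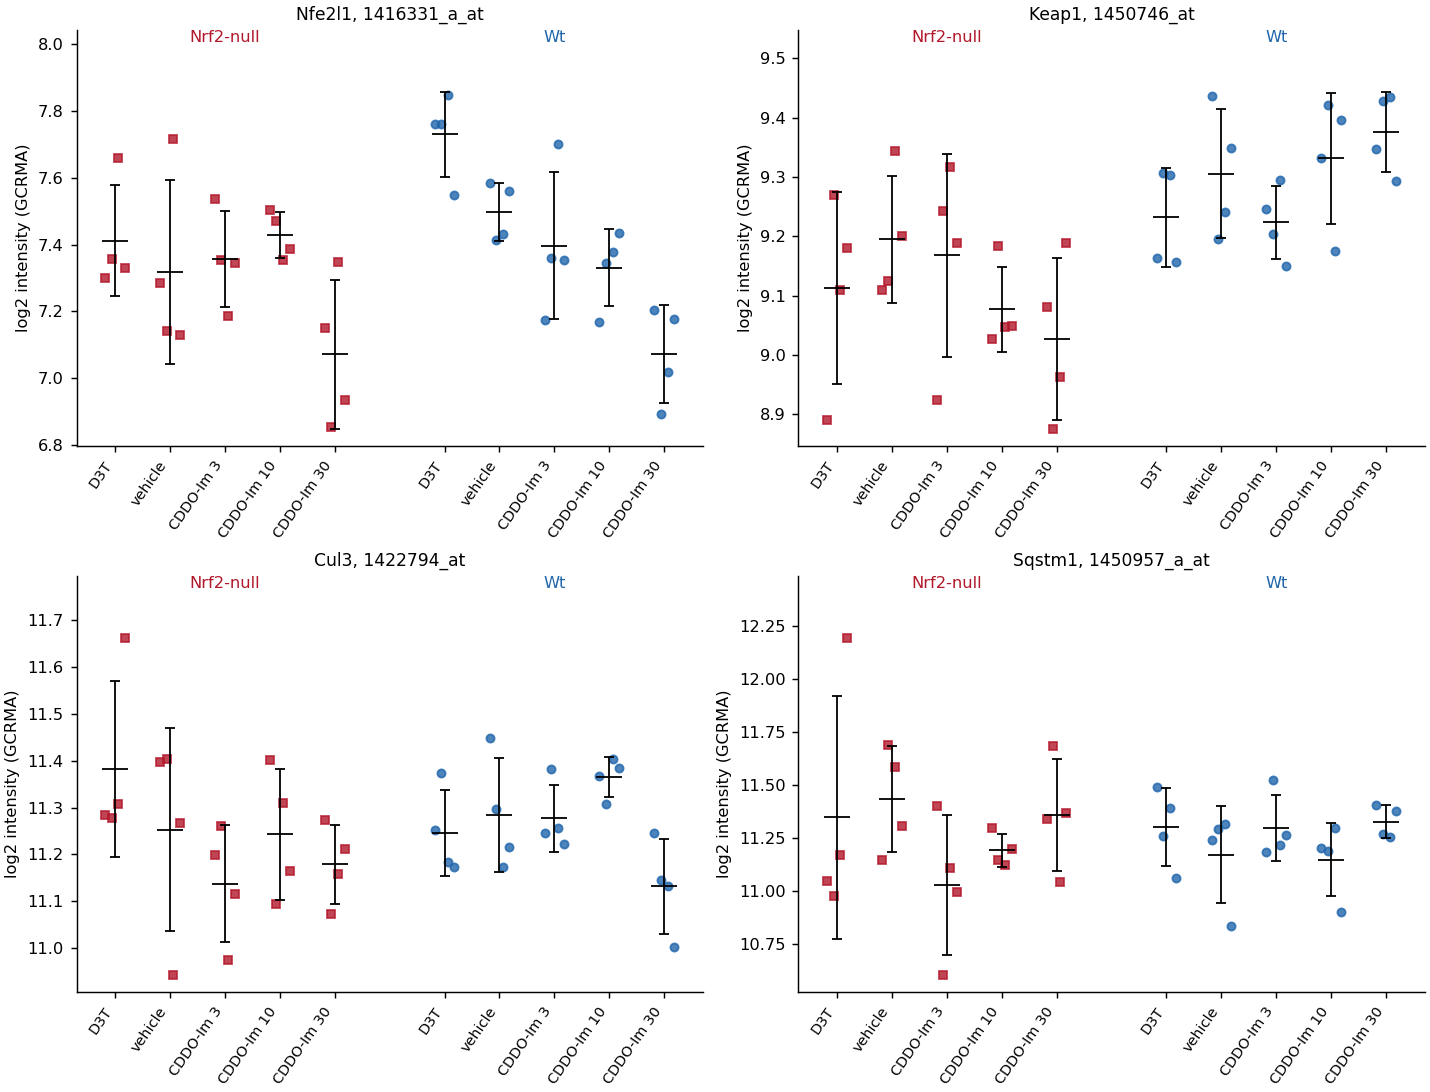
Log2 intensity (y axis) of Nfe2l1, Keap1, Cul3 and Sqstm1 on the brightest probe set of each gene, 1 point per mouse with the mean ± SD of 4; squares are Nrf2-null and circles Wt mice. Wt Nfe2l1 is highest with D3T and lowest with CDDO-Im 30, Keap1 stays between 8.88 and 9.44, and Nrf2-null D3T mouse 4 stands at 12.19 for Sqstm1 and 11.66 for Cul3.

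The small Maf proteins lack a transactivation domain and act through their partner. Mafg on 1448916_at read log2 10.07, 10.07, 10.15 and 10.24 in Wt mice given CDDO-Im 10, all above the 10.01, 9.76, 9.91 and 9.77 of Wt vehicle mice, but the change of 0.27 did not pass (SE 0.11, limma adjusted p = 0.093; 0.33 and 0.036 with centred arrays). In Nrf2-null liver the direction was the other way, with 9.86, 9.78, 9.54 and 9.87 for CDDO-Im 10 and 10.32, 10.11, 10.04 and 9.82 for vehicle, a change of -0.31 (adjusted p = 0.20). The Nrf2-null change minus the Wt change with CDDO-Im 10 was -0.58 (SE 0.16, adjusted p = 0.022). In this genotype difference 2 of the 18 members (11.1%) were called, Mafg and Bach1, against 6.66% of all probe sets, both below 0 (3.45% of all probe sets).

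At the highest dose Mafg was the only member called in Nrf2-null liver, on 1 of 18 member probe sets (5.56%, against 0.882% of all probe sets and 0.702% lower). Nrf2-null mice read log2 9.36, 9.75, 9.72 and 9.37 with CDDO-Im 30, all below the 4 Nrf2-null vehicle mice, a change of -0.53 (SE 0.11, limma adjusted p = 0.014). Wt mice read 9.89, 9.78, 9.85 and 9.78 with CDDO-Im 30, within the range of Wt vehicle mice (change -0.04, 95% interval -0.27 to 0.19). The genotypes differed in this response by -0.49 (SE 0.16, limma adjusted p = 0.042), the only 1 of 18 member probe sets called there (5.56%, against 10.9% of all probe sets and 3.04% below 0). The other Mafg probe set, 1434054_at, changed by -0.34 in Nrf2-null mice (limma adjusted p = 0.41) and by -0.25 in Wt mice (adjusted p = 0.27) and was not called. Its genotype difference was not called either.

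Leaving out single mice bore on these Mafg calls. The Nrf2-null CDDO-Im 30 call ended without Nrf2-null vehicle mouse 1 or without CDDO-Im 30 mouse 1 or 4 (adjusted p up to 0.084), and in a fit of the 2 compared groups alone (adjusted p = 0.41). The CDDO-Im 10 difference between genotypes ended without Nrf2-null vehicle mouse 1 or CDDO-Im 10 mouse 3 and with no expression minimum (adjusted p up to 0.052). The CDDO-Im 30 difference passed only without Wt vehicle mouse 1, Nrf2-null vehicle mouse 4 or Nrf2-null CDDO-Im 30 mouse 2 or 3, and ended without any of the other 12 mice (adjusted p up to 0.099), with no expression minimum (adjusted p = 0.092) and with the compared groups alone (adjusted p = 0.075).

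Maff was near the expression minimum, within 0.02 of log2 4.09 on 17 of 40 arrays. Wt mice given CDDO-Im 10 read log2 5.35, 4.20, 4.12 and 5.46, against log2 4.08, 3.56, 4.09 and 3.48 in Wt vehicle mice, a change of 0.98 (SE 0.33, limma adjusted p = 0.037). The groups did not overlap, but mice 2 and 3 stood just above the vehicle mice, and the call ended without CDDO-Im 10 mouse 1 or 4 or vehicle mouse 2 or 4 (adjusted p up to 0.15), with no expression minimum (0.091) and with the compared groups alone (0.075). Nrf2-null mice given CDDO-Im 10 read 6.00, 4.41, 5.22 and 4.08 and Nrf2-null vehicle mice 4.18, 4.09, 4.24 and 4.85, with overlap. Mafk, within 0.02 of log2 6.72 on 15 of 40 arrays, was called in 0 of the 16 comparisons (2 at an unadjusted p under 0.05, limma); its lowest group was Nrf2-null CDDO-Im 30, at 6.10, 6.34, 6.61 and 5.82, against 7.39, 6.28, 6.71 and 6.54 in Nrf2-null vehicle mice (change -0.52, adjusted p = 0.18).

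Bach1 (chr16:87698954-87733346), the repressor that competes with Nrf2 for small Maf proteins, rose with CDDO-Im 10 in Wt liver. Probe set 1449311_at read log2 8.33, 7.79, 8.01 and 8.29 in Wt mice given CDDO-Im 10, against log2 6.97, 7.49, 7.11 and 6.64 in Wt vehicle mice. No mice overlapped, and the change was 1.05 (SE 0.21, limma adjusted p = 0.00099). It passed in all 8 fits with 1 mouse left out (adjusted p at most 0.0061).

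At the other doses Bach1 was not called: the Wt means were 7.05 ± 0.35 with vehicle, 7.23 ± 0.25 with CDDO-Im 3, 8.10 ± 0.25 with CDDO-Im 10 and 7.30 ± 0.15 with CDDO-Im 30 (SD, n = 4 each), so the middle dose alone stood out. CDDO-Im 30 lay 0.80 below CDDO-Im 10 on the log2 scale (SE 0.21, adjusted p = 0.0088), and CDDO-Im 10 lay 1.20 above D3T (adjusted p = 0.00023). The brighter probe set, 1440831_at, moved with it (r = 0.81 over 40 arrays) but less far: 11.20, 10.65, 10.66 and 11.39 in CDDO-Im 10 mice and 10.53, 11.01, 10.78 and 10.13 in vehicle mice overlapped (change 0.36, 95% interval -0.01 to 0.73).

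In Nrf2-null liver no such change of Bach1 on 1449311_at was seen. Nrf2-null mice read log2 8.04, 7.42, 7.28 and 6.95 with CDDO-Im 10 and 8.19, 7.55, 6.99 and 7.59 with vehicle, and the groups overlapped throughout. Between genotypes the change with CDDO-Im 10 differed by -1.21 (Nrf2-null minus Wt, SE 0.30, limma adjusted p = 0.013). The difference passed in all 16 fits with 1 mouse left out (adjusted p at most 0.039) and did not pass in a fit of the 4 compared groups alone (adjusted p = 0.077). On the brighter 1440831_at the genotype difference was not called. That probe set averaged log2 10.65 with vehicle and 10.61 with CDDO-Im 10 in Nrf2-null mice, and 10.61 and 10.97 in Wt mice.

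Clock genes were shifted in some of the same mice as Bach1 and Maff, but not in all. A score of 7 evening genes such as Per2 and Dbp minus 5 morning genes such as Arntl was 2.30 to 3.99 in Wt mice given CDDO-Im 10 and -2.84 to -2.54 in Wt vehicle mice, with no mouse of the 2 groups near the other. It was -2.52 to -2.26 with CDDO-Im 30, -2.99 to -2.48 with CDDO-Im 3 and -1.43 to 0.49 with D3T in Wt mice, and these D3T mice, although their scores lay above vehicle, had the lowest Wt mean of Bach1 1449311_at (6.90, against 7.05 with vehicle). Among the 4 Nrf2-null vehicle mice, mouse 1 alone had a high score, 3.08 against -3.31 to -2.46, and it also had the highest Bach1 (8.19), Mafg (10.32) and Mafk (7.39) of its group. Its Maff of 4.18 was not the highest, which was the 4.85 of mouse 4, the mouse with the lowest score (-3.31). The Nrf2-null CDDO-Im 10 mice were split, at 1.99, -2.37, 2.33 and -2.55, and mice 1 and 3, with the high scores, held the higher Maff values of 6.00 and 5.22. Bach1 1449311_at followed the score only in part there. It was highest in mouse 1 (8.04) and lowest in mouse 4 (6.95), but mouse 3 read 7.28, below the 7.42 of mouse 2.

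With the clock score as a covariate the CDDO-Im 10 changes in Wt liver shrank to 0.43 for Bach1 1449311_at (adjusted p = 0.47) and 0.23 for Maff (adjusted p = 0.85). The difference between genotypes shrank to -0.74 for Bach1 (adjusted p = 0.17) and to -0.50 for Mafg (adjusted p = 0.11), and that of Mafg at CDDO-Im 30 was -0.45 (adjusted p = 0.067). Every member called between CDDO-Im 30 and CDDO-Im 10 lost its call in that fit, as did, against D3T, all members called but Bach1 1449311_at with CDDO-Im 10 and all but Nfe2l1 with CDDO-Im 30. The CDDO-Im 30 falls of Nfe2l2 1457117_at and Nfe2l1 in Wt liver were -1.30 and -0.43 in that fit (adjusted p = 0.00050 and 0.014). The score follows the CDDO-Im 10 group almost mouse for mouse in Wt liver, so the score and the dose cannot be told apart there.

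**Figure D4:**
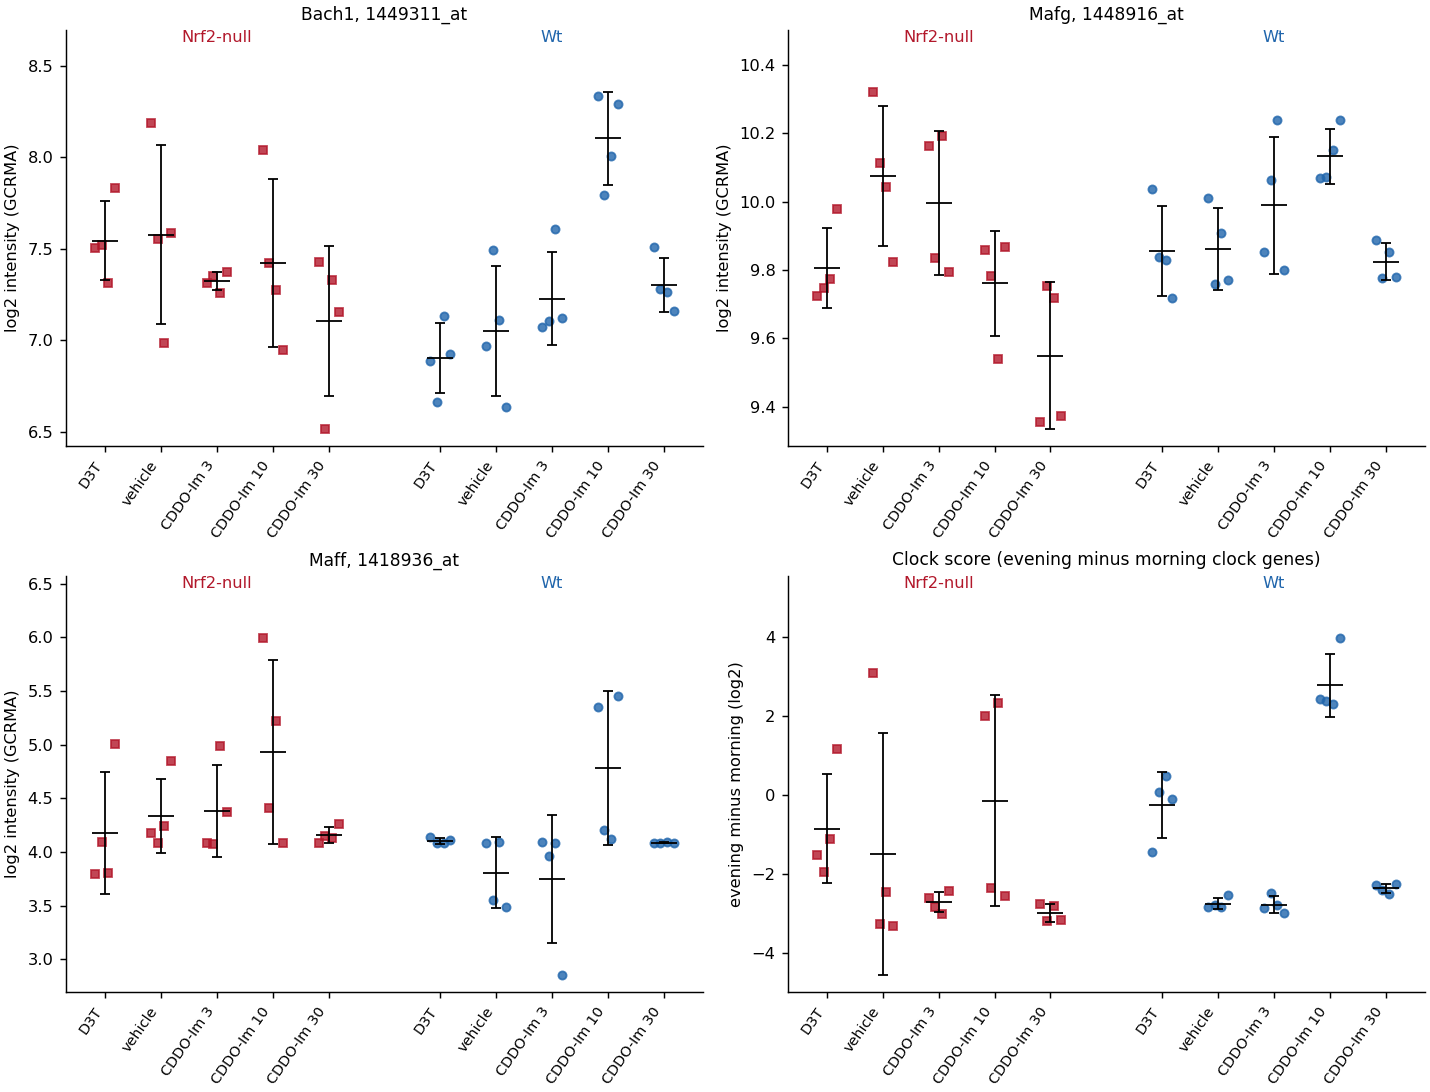
Bach1 (1449311_at), Mafg (1448916_at) and Maff (1418936_at) as log2 intensity, and the clock score as evening minus morning clock genes in log2 units, for each mouse with the mean ± SD of 4; squares are Nrf2-null and circles Wt mice. Wt CDDO-Im 10 mice are the highest Wt group in all 4 panels, and the 2 Nrf2-null CDDO-Im 10 mice with a score near 2 are also the 2 highest for Maff.

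Sqstm1, itself known as a target of Nrf2, had 2 probe sets, and 1 call among the 16 comparisons. On the brighter, 1450957_a_at, Wt mice given CDDO-Im 30 read log2 11.41, 11.27, 11.25 and 11.38 and Wt vehicle mice 11.24, 11.29, 11.32 and 10.84, a change of 0.15 (95% interval -0.21 to 0.52). The dim probe set 1444021_at read 5.81, 5.70, 6.00 and 5.90 with CDDO-Im 30, above all vehicle mice (5.61, 5.01, 5.24 and 5.20), with a change of 0.59 that did not pass (limma adjusted p = 0.058) and did pass with centred arrays (0.76, adjusted p = 0.018). Against D3T it differed by 0.59 (adjusted p = 0.048), a call that ended without any 1 of the 8 mice except D3T mouse 4 (adjusted p up to 0.11). The 2 probe sets hardly moved together (r = 0.15 over 40 arrays).

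Between genotypes without treatment, Nfe2l2 on 1416543_at was the only member called, 1 of 18 member probe sets (5.56%, against 11.1% of all probe sets and 4.42% lower). That call reports the deletion itself, which the genotype fixes in advance. The differences of other members did not pass: Nrf2-null minus Wt vehicle, they were 0.53 for Bach1 1449311_at (95% interval 0.09 to 0.96, limma adjusted p = 0.11), 0.53 for Maff (-0.13 to 1.20), 0.26 for Sqstm1 1450957_a_at (-0.11 to 0.63), 0.21 for Mafg 1448916_at (-0.01 to 0.44) and -0.18 for Nfe2l1 (-0.43 to 0.07). Of the 29 Nrf2 targets in the same mice, 17 were lower and 0 higher, Ces1g by 3.81 and Gsta2 by 2.72 on the log2 scale. In treated Nrf2-null liver 0 of 18 member probe sets were called with D3T, CDDO-Im 3 or CDDO-Im 10 (against 3.80%, 1.38% and 0.444% of all probe sets), with 2, 1 and 1 at an unadjusted p under 0.05. The responses to D3T and CDDO-Im 3 differed between genotypes for 0 of 18 (against 0.106% and 2.98%), with 0 and 2 at an unadjusted p under 0.05.

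The compounds were also set against each other in Wt liver, although their doses differ. CDDO-Im 10 differed from D3T for 4 of 18 member probe sets (22.2%, against 18.2% of all probe sets), with both Bach1 probe sets and Nfe2l2 1457117_at higher and Nfe2l1 lower. CDDO-Im 30 differed from D3T for 3 (16.7%, against 26.8%), with Nfe2l2 1457117_at and Nfe2l1 lower and Sqstm1 1444021_at higher. CDDO-Im 30 was lower than CDDO-Im 10 for 3 (16.7%, against 17.3%), both Nfe2l2 probe sets and Bach1 1449311_at (12.7% of all probe sets were lower).

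Single mice decided several of these calls. Nfe2l2 1457117_at lost its call against D3T without D3T mouse 2 or 4 or CDDO-Im 10 mouse 3 at the middle dose (adjusted p up to 0.067), and without D3T mouse 3 or CDDO-Im 30 mouse 4 at the highest (up to 0.075). Bach1 1440831_at lost its call without D3T mouse 2 or 4 or CDDO-Im 10 mouse 1 or 4 (up to 0.14). With no expression minimum these 2 CDDO-Im 10 calls against D3T ended (adjusted p = 0.053 for Nfe2l2 and 0.081 for Bach1), as did that of Sqstm1 1444021_at with CDDO-Im 30 (0.10) and, between CDDO-Im 30 and CDDO-Im 10, that of Nfe2l2 1416543_at (0.099). The Bach1 1440831_at call also ended with the compared groups alone (0.052). Mice given D3T or CDDO-Im 30 carried animal numbers from a lower range than all other mice, and treatment and animal set cannot be told apart where a comparison spans both ranges; CDDO-Im 30 against D3T stayed within 1 range.

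Genes around the switch were counted from lists, with 1 probe set per gene. Of 14 measured genes of cullin ligases and neddylation, the modification that activates cullins, 0 were called with D3T, 2 fell with CDDO-Im 10 (Ube2f by 0.51 and Cops2 by 0.25) and 1 fell with CDDO-Im 30 (Nedd8 by 0.21), which is 14.3% and 7.14%, against 17.3% and 22.3% of all 9695 genes at the 2 doses. Of 6 other proteins that bind Keap1, Pgam5 fell by 0.43 with CDDO-Im 10 and by 0.48 with CDDO-Im 30, Ikbkb, a kinase of NF-κB signalling, fell by 0.40 with CDDO-Im 30, and Amer1 rose by 0.62 with CDDO-Im 10, 33.3% of the list at either dose. The median change of all 9695 genes was -0.08 with CDDO-Im 10 and -0.16 with CDDO-Im 30, so the fall of Nedd8 was close to that of the median gene.

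Among 8 genes that process or turn over Nrf1, Fbxw7, which marks Nrf1 for degradation, fell by 0.38 with CDDO-Im 10 and by 0.70 with CDDO-Im 30, and Hcfc1 fell by 0.47 and by 0.53. Sel1l fell with CDDO-Im 10 alone (by 0.63), and Vcp, which extracts proteins from the endoplasmic reticulum, rose by 0.27 with CDDO-Im 30; 37.5% of the list were called at either dose, against 17.3% and 22.3% of all genes. The response of Fbxw7 differed by genotype, by 0.66 with CDDO-Im 10 and by 0.92 with CDDO-Im 30 (limma adjusted p = 0.030 and 0.0016, Nrf2-null minus Wt).

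Of 12 kinases, coactivators and repressors of Nrf2, CDDO-Im 10 raised Crebbp (0.28) and lowered Chd6 and Smarca4 (by 0.58 and by 0.51), and CDDO-Im 30 raised Sesn2 (0.56), which promotes the removal of Keap1, and lowered Chd6 and Ncoa3 (by 0.43 and by 0.36), 25.0% of the list at either dose, near the 17.3% and 22.3% of all genes. Of 16 autophagy genes, which share a pathway with Sqstm1, 3 rose and 3 fell with CDDO-Im 10, led by Ulk1 (0.78) and Gabarapl1 (0.47), and 1 rose and 4 fell with CDDO-Im 30, led by Gabarap (fell by 0.43) and Becn1 (0.42). That is 37.5% and 31.2% of the list, against 17.3% and 22.3% of all genes, and at CDDO-Im 30 falls were the general pattern, with 1906 of all genes lower and 258 higher. Of 7 other CNC, Bach and AP-1 factors, 0 were called in any Wt treatment against vehicle. No gene of these 6 lists was called with D3T or CDDO-Im 3 in Wt liver.

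**Figure D5:**
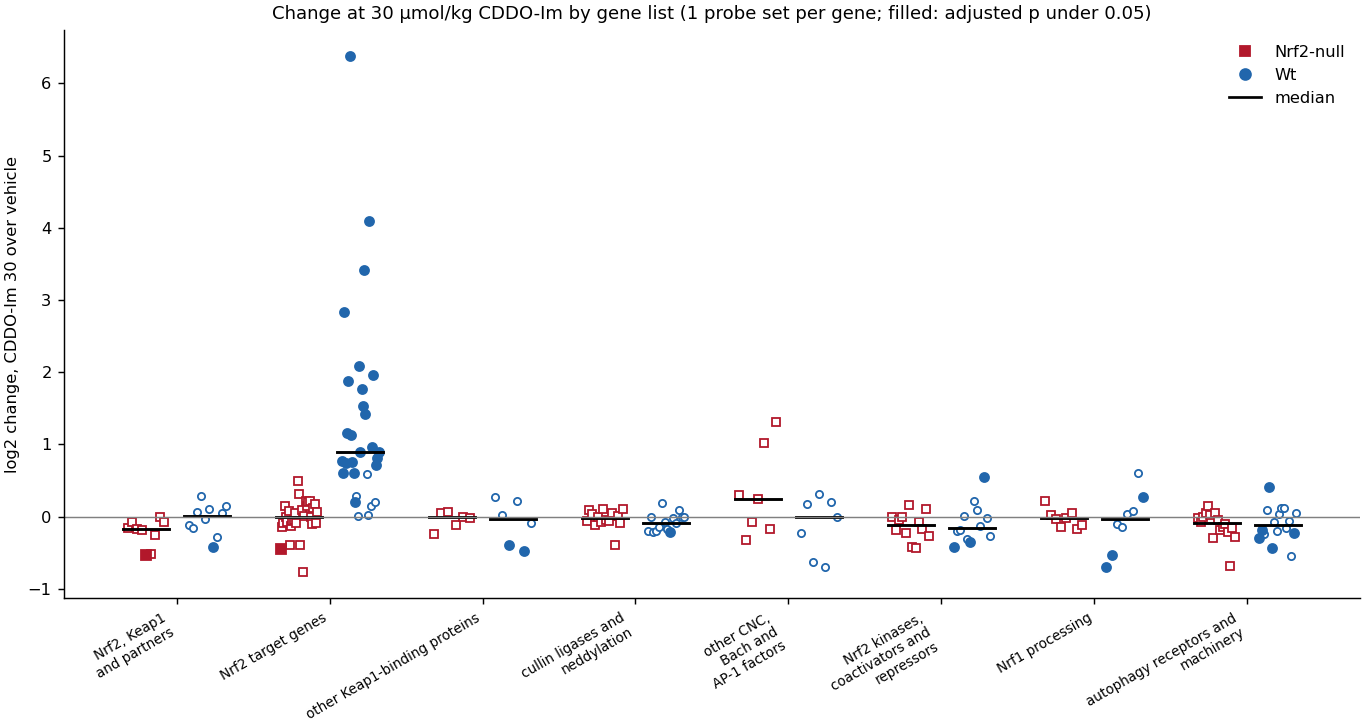
Log2 change with CDDO-Im 30 over vehicle (y axis) for the genes of each list (x axis), 1 probe set per gene, with Nrf2-null mice as red squares left of Wt mice as blue circles; filled symbols passed an adjusted p of 0.05 and bars are medians. Nfe2l2 is left out of the Nrf2-null members. Nrf2 targets in Wt mice have a median of 0.90 with 23 of 29 filled, while the members in Wt mice lie between -0.43 and 0.28 on these probe sets and 1 of 10 is filled.

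The genes whose arrays looked most like each called member, by Pearson r over 40 arrays on the brightest probe set, are given as a description, since all points share the same 10 groups. For Nfe2l2 1416543_at they were 9130409I23Rik (0.98), Abcc3 (0.97) and Ces1g (0.96), each split by genotype as Nfe2l2 is. For Nfe2l1 they were Alg9 (0.73), Kctd20 (0.72) and Amn1 (0.71), and for Cul3 Sec23a (0.82), Adipor1 (0.77) and Phf14 (0.73). Mafg was most like Irf2 (0.66), Gne (0.63) and N4bp2l1 (0.63), and Maff most like Rbm33 (0.69), Slc7a2 (0.68) and Gtf2b (0.66). Bach1 followed Wdr45b (0.73), Coq10b (0.72) and Ankrd12 (0.68), and Sqstm1 followed Cltb (0.76), Rrp1 (0.74) and Emc7 (0.68).

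Across the whole set, array medians of the 18935 probe sets ran from log2 7.5 to 7.86, and 6 hepatocyte markers averaged between 15.22 and 15.52 in every mouse. A set of 7 Kupffer cell markers averaged 7.25 to 8.99 in Nrf2-null D3T mice, the widest range of the 10 groups. Those mice also had the widest range for 4 stellate markers (9.91 to 11.52), 5 endothelial markers (7.82 to 9.27) and the red blood cell marker Alas2 (7.89 to 9.08). The hepatocyte, bile duct and exocrine pancreas markers ranged most widely in other groups. Of 5 lymphocyte markers, 0 passed the minimum. Among the members, Nrf2-null D3T mouse 4 stood apart for Sqstm1 1450957_a_at, at log2 12.19 against 10.98 to 11.17 in the others. For Cul3 1422794_at it read 11.66, against 11.28 to 11.31.

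Single markers of other cell types were called in the same comparisons as members. With CDDO-Im 30 in Wt liver, where the called probe sets of Nfe2l2, Nfe2l1 and Cul3 were lower, 2 of 6 hepatocyte markers (Cps1 fell by 0.22 and Apoa1 by 0.15) and 1 of 5 endothelial markers (Cdh5 fell by 0.52) were called lower, and 1 of 7 Kupffer cell markers higher (Marco by 3.49). With CDDO-Im 10, where Bach1 and Maff rose, 1 of 7 Kupffer cell markers was called higher (Marco by 1.96), while the median of the 7 was -0.23. Of 2 bile duct markers, 1 was called lower (Sox9 by 0.78). Marco averaged log2 2.52 in Wt vehicle mice, below the expression minimum, so the size of its rises is uncertain. In the genotype difference at CDDO-Im 30, where Mafg was called, the Nrf2-null minus Wt response was 2.65 for Cela1, 0.65 for Cdh5, 0.26 for Cps1, 0.21 for Alb and -3.20 for Marco, all called, and at CDDO-Im 10 it was 0.22 for Alb. Cela1, the only 1 of 3 exocrine pancreas markers on the array that passed the minimum, read log2 9.64 to 14.03 in Nrf2-null mice given CDDO-Im 30 and log2 9.51 to 10.42 in Nrf2-null vehicle mice. The part of these markers in the member results was not tested.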

How the data were processed

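Liver RNA of 40 mice in 10 groups of 4 was used, with groups, replicate numbers and doses from the sample labels; the labels name separate animals. Per the labels and the study's methods, the deposited values are log2 intensities that the authors computed with GCRMA, a background, quantile and median-polish procedure that pulls dim probe sets to shared floors; its version, and which arrays went into 1 run, is not given in the sources used here. Symbols came from the platform annotation: 34945 probe sets had 1, 932 several and 9160 none, and 34741 matched assembly GRCm38.p6 by gene identifier. The brightest kept probe set represented a gene. All 10 groups entered 1 fit in limma 3.58.1 with statmod 1.5.0 (R 4.3.3; eBayes with trend and robust variances), with Benjamini-Hochberg adjustment over 18935 probe sets and a threshold of 0.05. The expression minimum stood in for the authors' present calls. The fit was tested on simulated data. Exact two-sided permutation tests used SciPy 1.17.1 in Python 3.11.15. The number of arrays limits the precision.

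Members and gene lists were chosen with earlier results of these data known. All 10 members are named; values by mouse were given for members with a call, for Nfe2l2 and, beyond that rule, for Keap1 and Mafk; up to 3 called genes of largest change were named per list, with some left out. Alternatives were no minimum, a minimum of log2 5, 1 probe set per gene, centred arrays, no trend or robust step, the compared groups alone, a replicate block, the clock score as a covariate, the exact Wilcoxon test of the methods, and leaving out each mouse. Promoter sequences were RefSeq's.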

Additional observations from a re-analysis of the deposited data

Results flagged for a closer look

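Responses of 2 members differed between genotypes in the fit itself, each on a single probe set. Nrf2-null minus Wt, the response to CDDO-Im 10 differed by -0.58 for Mafg 1448916_at and by -1.21 for Bach1 1449311_at, and the response to CDDO-Im 30 by -0.49 for Mafg 1448916_at. The other probe set of either gene was not called there. None of these differences passed with the clock score as a covariate.

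Single mice stood far from the other 3 of their group in 20 of 150 groups of members examined; chance gives about 1 in 20 groups. The values in brackets are the gap to the nearest mouse as a share of the group's whole range, above Dixon's 95% critical value for 4 samples, and in 16 of the 20 the whole range was under log2 0.5. Nrf2-null D3T mouse 4 was highest for Sqstm1 1450957_a_at (0.844), Cul3 1422794_at (0.924) and Mafk (0.846), mouse 2 for Cul3 1434717_at (0.876) and mouse 3 for Nfe2l1 (0.842). Nrf2-null CDDO-Im 10 mice stood high for Nfe2l2 1416543_at (mouse 3, 0.836) and Keap1 (mouse 2, 0.863). Of Wt CDDO-Im 3 mice, mouse 3 was high for Bach1 1449311_at (0.915) and Mafk (0.965), and mouse 4 was low for Maff (0.893) and high for Cul3 1434717_at (0.980) and Rbx1 (0.987). Of Wt CDDO-Im 10 mice, mouse 2 was high for Mafk (0.894) and mouse 1 low for Cul3 1434717_at (0.920). Wt vehicle mouse 4 was low for Sqstm1 1450957_a_at (0.842) and mouse 3 for Nfe2l2 1457117_at (0.946). Mafk was low in Nrf2-null CDDO-Im 3 mouse 3 (0.888). The rest were on the Rbx1 probe set, which has a plateau: Wt D3T mouse 2 (0.967), Wt CDDO-Im 30 mouse 4 (0.897) and Nrf2-null CDDO-Im 3 mouse 2 (0.986).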

How the results depend on the processing

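Counts of called members were small, so single probe sets near the threshold moved them; no called member changed sign, while Cul3 1422794_at, not called with CDDO-Im 30 in Wt liver (-0.15), was 0.02 with centred arrays. In Wt liver CDDO-Im 10 against vehicle called 2 and gave 1 with no minimum, with a minimum of log2 5 or with 1 probe set per gene, 0 with the clock score and 4 with the exact Wilcoxon test, which gave 4 for D3T and 1 for CDDO-Im 3 (unadjusted). CDDO-Im 30 against vehicle called 4 and gave 1 with 1 probe set per gene and 2 with centred arrays. CDDO-Im 10 against D3T called 4 and gave 2 with no minimum, 2 with 1 probe set per gene and 1 with the clock score. CDDO-Im 30 against D3T called 3 and gave 1 with 1 probe set per gene and 5 with centred arrays. CDDO-Im 30 against CDDO-Im 10 called 3 and gave 0 with the clock score, 5 with the compared groups alone and 6 with the Wilcoxon test. The 1 call for CDDO-Im 30 in Nrf2-null liver became 0 with the compared groups alone. The genotype difference at CDDO-Im 10 called 2 and gave 1 with no minimum, with 1 probe set per gene or with the compared groups alone, and 0 with the clock score; at CDDO-Im 30 it called 1 and gave 0 with no minimum or the compared groups alone and 2 with centred arrays. The cause was not tested, save that 1 probe set per gene leaves 10 to test.

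Leaving out 1 mouse gave 1 to 3 calls for CDDO-Im 10 and 3 to 4 for CDDO-Im 30 against Wt vehicle, 1 to 4 for CDDO-Im 10 and 1 to 4 for CDDO-Im 30 against D3T, 2 to 4 for CDDO-Im 30 against CDDO-Im 10, 0 to 1 for D3T and 0 to 1 for CDDO-Im 30 in Nrf2-null liver, 1 to 2 for Nrf2-null against Wt vehicle, 1 to 2 and 0 to 2 for the genotype differences at CDDO-Im 10 and 30, and 0 to 0 elsewhere. Calls were gained in Nrf2-null liver with D3T without vehicle mouse 1, and between vehicle groups without Nrf2-null vehicle mouse 3.

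Centring moved the balance of all calls: the share of calls that were higher was 18.3% and became 64.1% for CDDO-Im 30 against vehicle, 39.2% and 53.7% for CDDO-Im 10, 38.5% and 56.4% for CDDO-Im 10 and 21.3% and 62.6% for CDDO-Im 30 against D3T, 26.7% and 57.4% for CDDO-Im 30 against CDDO-Im 10, 30.9% and 61.7% for CDDO-Im 3 and 22.6% and 41.9% for CDDO-Im 10 in Nrf2-null liver, 60.2% and 39.3% for Nrf2-null against Wt vehicle, and 33.1% and 53.5% for the genotype difference at CDDO-Im 3 and 72.2% and 35.1% at CDDO-Im 30. Replicate numbers do not pair mice: 0 of 12 comparisons had every same-numbered pair correlated above 0.1. The replicate block kept every count within 1.5 times and ended the call of Nfe2l2 1416543_at between CDDO-Im 30 and 10 (-0.45). Dim probe sets (Maff, Rbx1) sit on background plateaus that hide small changes. Mafk was brighter, with a mean of log2 6.70, though 15 of 40 arrays lay within 0.02 of 1 value.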
